A study of Mus musculus with 14 samples.

Results

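Bile acid synthesis in the liver was followed through 10 genes chosen by name: Cyp7a1 and Cyp8b1 of the classic pathway, Cyp27a1 and Cyp7b1 of the alternative pathway, 5 genes of the steps both pathways share (Hsd3b7, Akr1d1, Amacr, Slc27a5 and Baat), and Nr0b2, which encodes the repressor SHP. All 10 passed the filter on low counts, out of 24970 genes that any library counted. RNA sequencing was done on 14 mouse liver samples. All recipients were on a high-fat diet and carried a silk scaffold. In the transplant group (n = 6, titled iBAT 2x) the scaffold held differentiated pre-adipocytes, obtained from the stromal cells of brown adipose tissue, and in the empty scaffold group (n = 8, titled Sham-WT) it held no cells. The design asks which metabolic changes the transplant brings to the recipient, with the liver transcriptome as 1 readout. The sources used here do not give strain, sex, age, the time since transplantation, the fasting state, the hour of tissue collection or the meaning of "2x". The labels do not say that each sample came from a separate mouse, so the p-values describe the spread among libraries, part of which may be technical.

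Bile acids are made from cholesterol in hepatocytes. The classic pathway starts with CYP7A1, its rate-limiting enzyme, and its intermediates can be hydroxylated by CYP8B1, which sets the share of cholic acid. The alternative pathway starts with the mitochondrial sterol hydroxylase CYP27A1, whose oxysterol products are hydroxylated by CYP7B1 and go mainly towards chenodeoxycholic acid and, in mice, muricholic acids. Bile acids that return to the liver activate the nuclear receptor FXR, which induces SHP, and SHP together with the intestinal hormone FGF15 represses Cyp7a1 and Cyp8b1.

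Of the 10 genes, 5 had an entry in a RefSeq promoter table of mouse build GRCm38.p6: Akr1d1, Cyp27a1, Cyp8b1, Hsd3b7 and Nr0b2. The 250 bases upstream of the start are printed 5′ to 3′ on the gene's strand for Cyp27a1, which was higher in transplant livers, for Cyp8b1, whose groups lay closest together, and for Nr0b2, the repressor. The windows of Cyp8b1 and Nr0b2 were chosen after their contents were seen. They lie at chr1:74713285-74713534 on the plus strand (Cyp27a1), chr9:121916306-121916555 on the minus strand (Cyp8b1) and chr4:133553126-133553375 on the plus strand (Nr0b2). Capitals mark matches, on either strand and with overlaps allowed, to the nuclear receptor half-site AGGTCA, to CAAGGNCA (an extended half-site of the kind that LRH-1, the product of Nr5a2, binds) and to TTCNNNGAA, the spaced palindrome that STAT factors bind.
Cyp27a1: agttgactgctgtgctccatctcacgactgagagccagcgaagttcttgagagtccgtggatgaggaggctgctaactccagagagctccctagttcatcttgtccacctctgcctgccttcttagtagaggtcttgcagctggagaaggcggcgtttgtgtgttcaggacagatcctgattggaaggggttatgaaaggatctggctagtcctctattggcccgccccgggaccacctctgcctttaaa
Cyp8b1: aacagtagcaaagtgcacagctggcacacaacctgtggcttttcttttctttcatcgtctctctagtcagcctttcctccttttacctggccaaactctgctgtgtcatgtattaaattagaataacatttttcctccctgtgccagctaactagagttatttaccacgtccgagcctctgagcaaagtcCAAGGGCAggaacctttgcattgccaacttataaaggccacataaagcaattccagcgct
Nr0b2: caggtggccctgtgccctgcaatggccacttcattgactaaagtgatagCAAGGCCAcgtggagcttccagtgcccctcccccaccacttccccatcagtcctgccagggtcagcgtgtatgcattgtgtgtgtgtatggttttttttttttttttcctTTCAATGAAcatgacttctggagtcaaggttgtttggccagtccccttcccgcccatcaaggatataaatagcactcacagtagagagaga
The window of Cyp8b1 held CAAGGGCA at positions -60 to -53 from the start, and that of Nr0b2 held CAAGGCCA at -201 to -194 and TTCAATGAA at -91 to -83. Matches were also present in the windows not printed. That of Akr1d1 held TGACCT, which is AGGTCA on the other strand, at -232 to -227 and at -210 to -205. That of Hsd3b7 held TTCCTGGAA at -21 to -13. Among 32851 promoters of the table, 14.02% had AGGTCA in the same window, 5.53% CAAGGNCA and 7.02% TTCNNNGAA. A match describes letters only, and the absence of a match in the Cyp27a1 window says nothing of the factors.

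The total estimated count per library was 19482580 to 28910968, and each of the 10 genes had at least 318 estimated counts in every library. The numbers in the sample titles fall into a range below 100 and a range of 100 or above, each with 3 transplant and 4 empty scaffold libraries. What these numbers stand for is not given, but 23.4% of the 13127 genes tested differed between the ranges at an adjusted p under 0.05 with the group in the model (edgeR's quasi-likelihood test with Benjamini-Hochberg adjustment over all tested genes, the test used wherever no other is named). Inside a range, transplant numbers and empty scaffold numbers form separate runs, so the group and whatever the numbers record cannot be told apart there. Libraries also differed in how relative gene level, the difference from each gene's mean over the 14 libraries, followed transcript length. With GC content in the same fit, slopes were -0.29 to 0.02 in the transplant group and -0.10 to 0.25 in the empty scaffold group. They are in log2 CPM per doubling of length, where CPM is counts per 1000000 in the library as scaled by edgeR's TMM factors. The sign of a slope is thus relative to the average of the series. Hepatocyte markers had a summed level of 70612 to 117726 TPM (transcripts per 1000000) in transplant and 93915 to 118051 TPM in empty scaffold livers, and all 12 markers were tested. In each of the 10 genes, 1 protein-coding transcript held at least 92.1% of the counts on average in either group.

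In livers of transplant recipients both genes of the alternative pathway were higher: Cyp7b1 by 1.86-fold and Cyp27a1 by 1.30-fold. No gene of the classic pathway and none of the 5 shared genes passed the test, although 4 of the 5 shared genes and Cyp7a1 had an unadjusted p under 0.05 with a higher level in transplant livers. Nr0b2 had the only negative estimate. Counted over the 10 genes, 2 were called higher, against a background of 3.31% of all tested genes (435 of 13127), and 0 were called lower, against 4.23% (555 of 13127). At an unadjusted p under 0.05, 7 of the 10 were higher, where 14.6% of all tested genes were, and 0 were lower, where 15.4% of all tested genes were. DESeq2 and limma-voom likewise called 0 of the 10 lower. The median log2 fold change of the 10 genes was 0.26, and that of all tested genes was -0.02. An estimate above 0 was found for 9 of the 10 genes and for 47.1% of all tested genes. These counts describe genes of 1 pathway in the same libraries, which are not independent of each other.

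**Figure D1:**
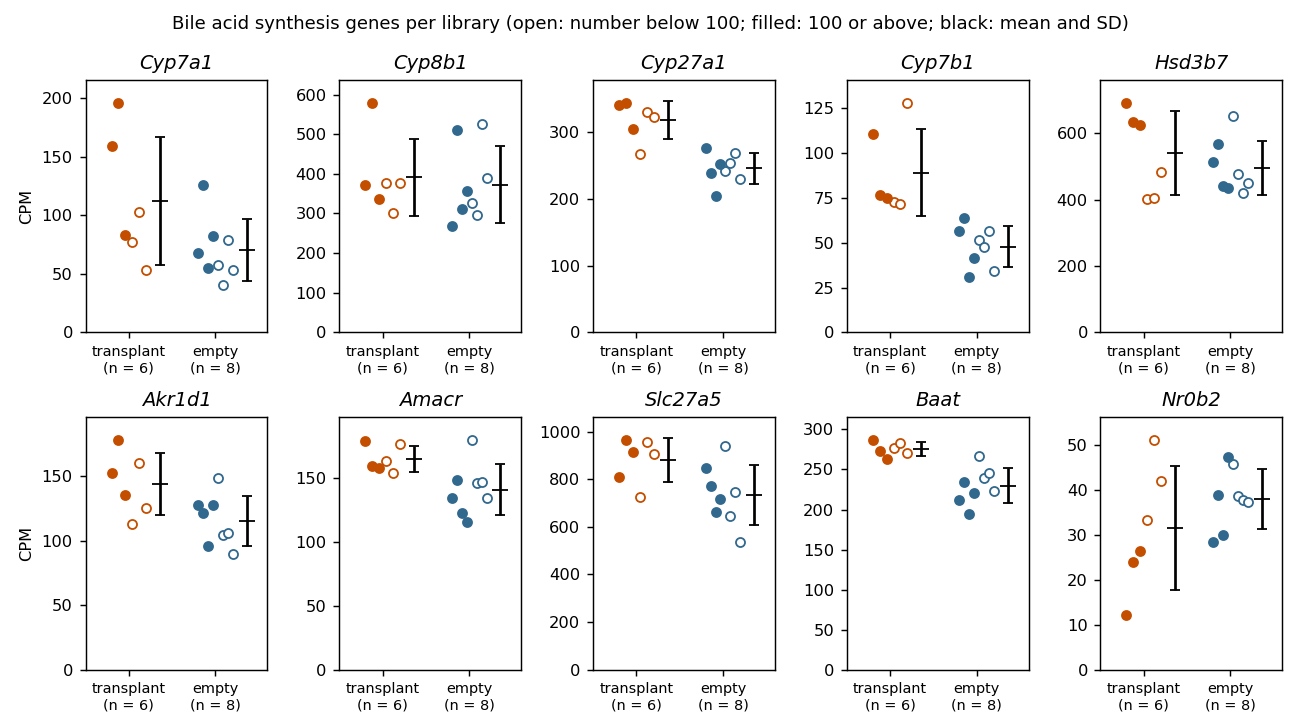
Level of each of the 10 genes in every library, in CPM, with 6 transplant and 8 empty scaffold libraries per panel. Open points are libraries numbered below 100, filled points those numbered 100 or above, and the black bars give mean and SD. Cyp7b1 is the gene whose groups do not overlap in CPM, and in Nr0b2 the 3 filled transplant points lie below all empty scaffold points.

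Cyp7b1 encodes the oxysterol hydroxylase of the alternative pathway and is known as a male-biased gene of mouse liver. Its level in the 6 transplant libraries was 110, 76.6, 74.7, 72.9, 71.7 and 128 CPM, from replicate 1 to 6. In the 8 empty scaffold libraries the lowest value was 31.0, the median 49.5 and the highest 64.0 CPM. In CPM every transplant library lay above every empty scaffold library, which was the case for 0.571% of all tested genes (75 of 13127). On the scale of the deposited TPM the groups overlapped, at 32.2 to 54.7 TPM in transplant and 21.1 to 47.5 TPM in empty scaffold livers, with 3 empty scaffold libraries above the lowest transplant library. The means were 89.1 ± 24.1 (SD, n = 6) and 47.9 ± 11.6 CPM (SD, n = 8), and the log2 fold change was 0.90 ± 0.17 (SE), with a 95% interval of 0.53 to 1.26 and an adjusted p of 0.0144 in edgeR's quasi-likelihood test. The call held in each of the 14 fits that left out 1 library. All of its counts came from the single transcript listed for it, ENSMUST00000035625.

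Cyp27a1 encodes the sterol hydroxylase that opens the alternative pathway and also oxidises the side chain of classic pathway intermediates. Transplant libraries held 341, 344, 304, 267.8, 330 and 323 CPM, from replicate 1 to 6. Empty scaffold libraries ranged from 204 to 277 CPM with a median of 247. Of the 6 transplant libraries, 5 lay above all empty scaffold libraries, and replicate 4 lay within their range. The difference was smaller than for Cyp7b1 but the spread was narrow, with means of 318 ± 28.6 (SD, n = 6) and 246 ± 22.8 CPM (SD, n = 8). The log2 fold change was 0.37 ± 0.09 (SE), with a 95% interval of 0.18 to 0.57 and an adjusted p of 0.0288 (edgeR). With 1 library left out the estimate stayed between 0.34 and 0.41. The call held in 9 of those 14 fits and was lost without transplant replicate 1 (adjusted p 0.0725) or 5 (0.0690), or empty scaffold replicate 3 (0.0557), 4 (0.0532) or 8 (0.0566). In those 5 fits the number of genes called higher over all genes was 51 to 121, against 435 with all libraries.

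The scaling of the libraries bears on the 2 calls in different ways. With library sizes taken as total counts without TMM factors, a choice added after the data were seen, the median of all tested genes moved to -0.25, and 0.891% of all tested genes were called higher. Cyp7b1 was still called there, at 0.67 (adjusted p 0.0159, edgeR), whereas Cyp27a1 stood at 0.15 (adjusted p 0.236). On the scale of the deposited TPM the median tested gene differed by -0.36 between the groups in mean log2 value, Cyp7b1 by 0.45 and Cyp27a1 by -0.05, and 8 of the 10 genes had a negative difference. Relative to the median gene these differences were 0.80 for Cyp7b1 and 0.30 for Cyp27a1, and 7 of the 10 were above 0. After the trends with transcript length and GC content were taken out of each library, both were called, Cyp7b1 at 0.78 (adjusted p 0.0404) and Cyp27a1 at 0.35 (adjusted p 0.0430), where 2.21% of all tested genes were called higher.

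Cyp7a1, the rate-limiting enzyme of the classic pathway, was the most variable of the 10 genes relative to its mean in both groups. Transplant libraries held 159, 196, 83.2, 77.0, 103 and 53.2 CPM, from replicate 1 to 6. In the empty scaffold group the lowest library had 40.7, the median was 62.4 and the highest library had 126 CPM. The groups overlapped: transplant replicates 1 and 2 were above all empty scaffold libraries, and the other 4 were within their range. The means of 112 ± 54.6 (SD, n = 6) and 70.2 ± 26.3 CPM (SD, n = 8) gave a log2 fold change of 0.67 ± 0.28 (SE), with a 95% interval of 0.08 to 1.26 and an adjusted p of 0.119 (edgeR). It passed in 0 of the 14 fits with 1 library left out, in which the estimate ran from 0.44 to 0.85.

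Cyp8b1, the sterol hydroxylase needed for cholic acid, had the estimate closest to 0 among the 10 genes. Transplant libraries ranged from 302 to 579.5 CPM with a median of 374, and empty scaffold libraries from 267.5 to 525 CPM with a median of 341. The highest transplant library, replicate 2, was also the highest of that group for Cyp7a1. Means were 391 ± 96.9 (SD, n = 6) and 373 ± 96.8 CPM (SD, n = 8), and the log2 fold change was 0.07 ± 0.17 (SE) with a 95% interval of -0.29 to 0.43 and an adjusted p of 0.807 (edgeR). Its sign depended on the scaling, since it was -0.14 with total counts without TMM factors and -0.37 on the TPM scale.

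**Figure D2:**
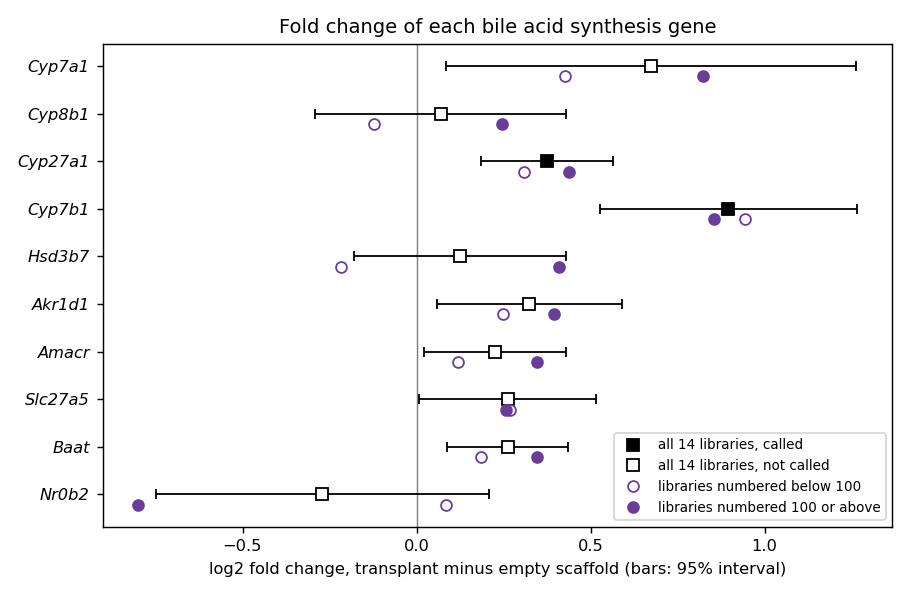
Log2 fold change of each gene, transplant minus empty scaffold, with its 95% interval (squares, filled where the adjusted p was under 0.05) and the fold changes within the libraries numbered below 100 (open circles) and 100 or above (filled circles). Cyp7b1 and Cyp27a1 have filled squares, and the circles of Cyp8b1, Hsd3b7 and Nr0b2 fall on both sides of 0.

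Hsd3b7 encodes the steroid dehydrogenase that acts on the ring after the first hydroxylations, and Akr1d1 the reductase that then saturates it. Hsd3b7 was at 401 to 692 CPM in transplant and 420 to 653 CPM in empty scaffold livers, so the transplant range enclosed the other. Its log2 fold change was 0.12 ± 0.14 (SE, adjusted p 0.577, edgeR) and turned to -0.09 with total counts without TMM factors. Akr1d1 was at 113 to 178.1 CPM in transplant and 89.5 to 149 CPM in empty scaffold livers. For Akr1d1, 3 of 6 transplant libraries exceeded all empty scaffold libraries, and the log2 fold change was 0.32 ± 0.13 (SE, adjusted p 0.102, edgeR).

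Amacr encodes the racemase that prepares the side chain for shortening in peroxisomes. It lay between 154 and 179.5 CPM in transplant and between 116 and 180.0 CPM in empty scaffold livers. All 6 transplant libraries were above the empty scaffold median, none was above the highest empty scaffold library, and 7 of 8 empty scaffold libraries were below the lowest transplant library. The log2 fold change was 0.23 ± 0.10 (SE, adjusted p 0.129, edgeR).

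Slc27a5 encodes the ligase that joins bile acids to coenzyme A, and Baat the transferase that then conjugates them to taurine, the main conjugate in mice. Slc27a5 ranged from 727 to 964 CPM in transplant and from 538 to 941 CPM in empty scaffold livers, a log2 fold change of 0.26 ± 0.12 (SE, adjusted p 0.155, edgeR). Baat was at 287, 273, 264, 276, 283 and 270.2 CPM in the transplant libraries, from replicate 1 to 6. In the empty scaffold group it was at 195 to 267 CPM, with a median of 229. It had the narrowest spread of the 10 genes in transplant livers, 275 ± 8.60 (SD, n = 6) against 230 ± 21.99 CPM (SD, n = 8). The groups overlapped through 1 library on each side: 5 of 6 transplant libraries were above all of the empty scaffold group, and 7 of 8 empty scaffold libraries were below all of the transplant group. The log2 fold change of Baat was 0.26 ± 0.08 (SE), with a 95% interval of 0.09 to 0.44 and an adjusted p of 0.0581 (edgeR). With the number range as a covariate, where 10.6% of all tested genes were called higher, Baat was called as well (0.26, adjusted p 0.0275), and the DESeq2 Wald test gave it an adjusted p of 0.00766. With total counts without TMM factors its estimate was 0.04 (adjusted p 0.733, edgeR).

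Nr0b2 encodes SHP, the repressor of Cyp7a1 and Cyp8b1. Transplant libraries held 12.1, 24.0, 26.5, 33.4, 51.1 and 42.0 CPM, from replicate 1 to 6. Among empty scaffold libraries the lowest was 28.4, the median 38.2 and the highest 47.3 CPM. Transplant replicates 1 to 3 were below all empty scaffold libraries, and these are the 3 transplant libraries numbered 100 or above. Replicate 5 was above all empty scaffold libraries. The means were 31.5 ± 13.8 (SD, n = 6) and 38.0 ± 6.58 CPM (SD, n = 8), with a log2 fold change of -0.27 ± 0.23 (SE), a 95% interval of -0.75 to 0.21 and an adjusted p of 0.435 (edgeR).

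The comparison was repeated within each number range. Among the libraries numbered 100 or above, 4 of the 10 genes were called higher in transplant livers, in a comparison that called 14.5% of all tested genes higher. They were Cyp7b1 (0.86, adjusted p 0.0269), Cyp27a1 (0.44, 0.0303), Baat (0.35, 0.0414) and Hsd3b7 (0.41, 0.0413), each by edgeR's quasi-likelihood test. Among the libraries numbered below 100, 0 of the 10 were called, where 0.0154% of all tested genes were called higher (2 of 12966). Cyp7b1 and Cyp27a1 had an adjusted p of 0.312 and 0.471 there, and an unadjusted p of 0.00306 and 0.0273 (edgeR). Their estimates in this range were 0.94 for Cyp7b1 and 0.31 for Cyp27a1, and neither differed detectably from that in the other range (interaction -0.09 with p 0.818 and 0.13 with p 0.458, edgeR, unadjusted). Nr0b2 differed by -0.80 (adjusted p 0.0502) in the range of 100 or above and by 0.08 (adjusted p 0.891) below it. The test of that difference gave -0.88 with an unadjusted p of 0.0189 and an adjusted p of 0.208 (edgeR, interaction of group and range). The same test gave 0.63 for Hsd3b7, with an unadjusted p of 0.00978 and an adjusted p of 0.188. Of all 13127 genes, 0 passed it after adjustment, and 2275 (17.3%) had an unadjusted p under 0.05.

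Between the ranges themselves 1 of the 10 genes was called, against the 23.4% of all tested genes given above. Cyp7a1 was higher in libraries numbered 100 or above by 0.69 ± 0.23 (SE, log2, adjusted p 0.0464, edgeR with the group in the model). Its mean was 146 CPM in the 3 transplant and 82.6 CPM in the 4 empty scaffold libraries of that range, against 77.6 and 57.8 CPM below 100. The call ended with the length and GC trends removed (0.46, adjusted p 0.312), with DESeq2 size factors (0.67, adjusted p 0.0518), with no filter on low counts (0.70, adjusted p 0.126) and in 9 of the 14 fits with 1 library left out (without transplant replicate 1, 2, 4 or 6, or empty scaffold replicate 2, 4, 5, 6 or 8), in which the estimate was 0.56 to 0.71. Nr0b2 differed between the ranges by -0.51 ± 0.20 (SE, adjusted p 0.0696, edgeR). Cyp7b1 and Cyp27a1 stood between the ranges at -0.01 ± 0.18 and 0.03 ± 0.09 (SE).

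The levels of the 10 genes can be compared with each other only per transcript length, for which the deposited TPM values were used within each library. Slc27a5 had the highest level, 364 ± 111 TPM (SD, n = 14), followed by Hsd3b7 at 308 ± 103 TPM. Cyp8b1 (197 ± 67.4 TPM) and Cyp27a1 (168 ± 32.9 TPM) did not separate, since Cyp8b1 was the higher one in 8 of 14 libraries. Baat followed at 143 ± 24.7, Amacr at 71.1 ± 15.2 and Akr1d1 at 59.7 ± 18.1 TPM, each above the next gene in at least 13 of 14 libraries. The lowest levels were those of Cyp7b1 (36.8 ± 10.4 TPM), Nr0b2 (33.9 ± 12.8 TPM) and Cyp7a1 (27.7 ± 15.8 TPM). Cyp7b1 exceeded Nr0b2 in 7 of 14 libraries and Nr0b2 exceeded Cyp7a1 in 10 of 14, and the order of their means differed between the groups. In transplant livers the means were 43.2 TPM for Cyp7b1, 30.3 for Cyp7a1 and 24.6 for Nr0b2, and Cyp7b1 exceeded Nr0b2 in 5 of 6 libraries. Nr0b2 exceeded Cyp7a1 in 3 of these 6, and the mean of Cyp7a1 included replicate 2 at 67.2 TPM. In empty scaffold livers the means were 40.9 TPM for Nr0b2, 31.9 for Cyp7b1 and 25.7 for Cyp7a1. There Cyp7b1 exceeded Nr0b2 in 2 of 8 libraries and Nr0b2 exceeded Cyp7a1 in 7 of 8.

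Whether the alternative pathway changed more than the classic one was asked with 4 ratios taken within each library, which do not depend on how libraries are scaled to each other. An exact two-sided permutation test over the 3003 ways to assign the libraries was used, adjusted over the 4 ratios. The log2 ratio of Cyp7b1 to Cyp8b1 in TPM was -1.93 ± 0.50 in transplant (SD, n = 6) and -2.76 ± 0.42 in empty scaffold livers (SD, n = 8). It was thus higher in transplant livers by 0.83 (exact permutation p = 0.00833, adjusted p = 0.0333), with ranges of -2.75 to -1.33 and -3.29 to -2.07 that overlapped. Transplant replicate 2, the library with the highest Cyp8b1, had the lowest ratio of its group. The genes differ in GC content (42.5% and 54.8% of the transcript). The slope on GC content of relative level, the difference from each gene's mean over all libraries, differed between libraries. It ran from -1.77 to 0.72 in transplant and from -0.79 to 1.98 in empty scaffold livers (log2 CPM per unit of GC fraction, with length in the same fit). With the length and GC trends removed, the edgeR estimates were 0.78 for Cyp7b1 and 0.08 for Cyp8b1. Within a number range, 3 against 4 libraries allow no p below 0.0286 before adjustment. Below 100 the 3 transplant ratios lay above all 4 empty scaffold ratios, with a difference of 0.998, and at 100 or above the difference was 0.66 with ranges that overlapped. Of the fits with 1 library left out, 9 of the 14 gave an adjusted p above 0.05, the highest being 0.0808 without transplant replicate 6 (exact permutation test).

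The 3 other ratios did not pass. Cyp7b1 to Cyp7a1 differed by 0.30 (exact permutation p = 0.455, adjusted p = 0.504), with 0.71 ± 0.90 in transplant (SD, n = 6) and 0.41 ± 0.46 in empty scaffold livers (SD, n = 8). Cyp27a1 to Cyp8b1 differed by 0.32 (exact permutation p = 0.123, adjusted p = 0.245). Cyp27a1 to Cyp7a1 differed by -0.21 (exact permutation p = 0.504, adjusted p = 0.504). A difference in change between the 2 pathways was therefore found only against Cyp8b1 and only for Cyp7b1, among the 4 ratios tested. Against Cyp7a1, the rate-limiting gene of the classic pathway, none was detectable with this spread.

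**Figure D3:**
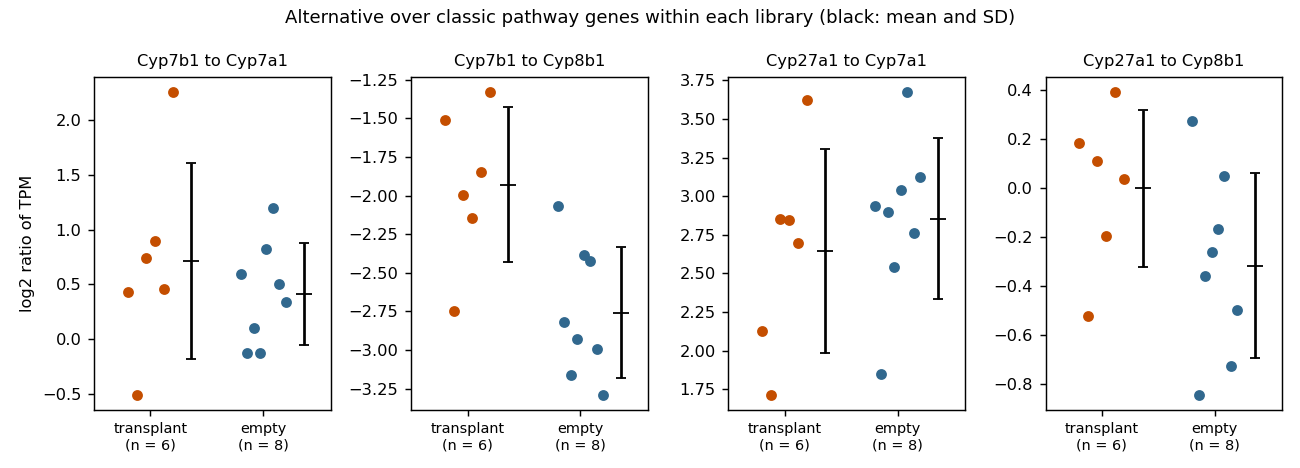
Log2 ratio of an alternative to a classic pathway gene in each library, from TPM, with mean and SD in black, for 6 transplant and 8 empty scaffold libraries. The ratio of Cyp7b1 to Cyp8b1 has a mean of -1.93 in transplant and -2.76 in empty scaffold livers, and in the 3 other panels the groups overlap over most of their range.

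Across the 14 libraries, with the mean of each group subtracted, 4 relations between the genes were computed on log2(CPM + 0.5), with permutation tests of 100000 resamples within groups and adjustment over the 4. Nr0b2 and Cyp7a1 had a Pearson r of -0.41 (permutation p = 0.247, adjusted p = 0.330) and a Spearman rho of -0.30 (permutation p = 0.354, adjusted p = 0.472). Without transplant replicates 1 and 2, the libraries farthest from the median log2 CPM of Nr0b2 before group means were subtracted, r was 0.12. Without replicates 1 and 5, the farthest after that subtraction (a choice added after the data were seen), it was -0.35. In log2 TPM with all 14 libraries it was -0.03, and with the means of group and range subtracted it was 0.059, so the value depended on the libraries left out, the scale and the subtraction of range means. Within groups r was -0.63 in the 6 transplant and 0.15 in the 8 empty scaffold libraries, and within number ranges it was -0.05 below 100 and -0.10 at 100 or above. Nr0b2 and Cyp8b1 had an r of -0.08 (permutation p = 0.775, adjusted p = 0.775) and a rho of 0.06 (permutation p = 0.847, adjusted p = 0.847).

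Both pairs of genes from the same pathway had a positive relation, and neither passed after adjustment. Cyp7a1 and Cyp8b1 had an r of 0.60 (permutation p = 0.0255, adjusted p = 0.0831) and a rho of 0.31 (permutation p = 0.304, adjusted p = 0.472). Without transplant replicates 1 and 2 the r was 0.47, without transplant replicate 2 and empty scaffold replicate 2 (farthest after subtraction) it was 0.21, and it was 0.42 within the range below 100 and 0.85 within the range of 100 or above. Cyp27a1 and Cyp7b1 had an r of 0.58 (permutation p = 0.0416, adjusted p = 0.0831) and a rho of 0.49 (permutation p = 0.0940, adjusted p = 0.376). Without empty scaffold replicate 3 and transplant replicate 2 the r was 0.50, without empty scaffold replicate 3 and transplant replicate 4 (farthest after subtraction) it was 0.34, and within the ranges it was 0.53 and 0.63.

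**Figure D4:**
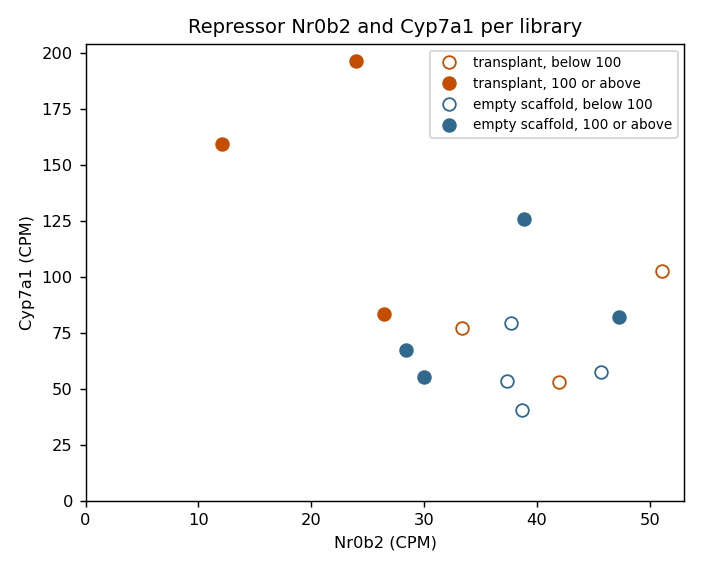
Cyp7a1 against Nr0b2 in each of the 14 libraries, both in CPM, with color for the group and fill for the number range. Transplant replicates 1 and 2, at 159 and 196 CPM of Cyp7a1, are the 2 filled points at the upper left; r is -0.41 with all libraries and 0.12 without these, but -0.35 without transplant replicates 1 and 5.

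The genes most like Cyp7b1 across the 14 libraries, by Pearson r of log2 CPM with group means subtracted over 11054 candidate genes, were Mup12 (r 0.86), Cadm4 (0.84), Mup1 (0.84), Nrbp1 (0.83) and Gjb1 (0.80). Mup1 and Mup12 encode major urinary proteins, secreted male-biased products of the liver. For Cyp7a1 they were Arid5b (0.82), Dnajb4 (0.81), Hsd17b7 (0.79), Bmp1 (0.79) and Lamb1 (0.79), of which Hsd17b7 encodes an enzyme of cholesterol synthesis. For Nr0b2 they were Kif21a (0.82), Ctr9 (0.80), C1s1 (0.79), Ier2 (0.79) and Tgif1 (0.79). None of these lists named another of the 10 genes. The values are the highest among many candidates in 14 libraries and share their library scaling.

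Further enzymes of bile acid synthesis and side chain shortening were listed as 15 genes, of which 14 were tested. Of these, 3 were called higher and 0 lower (3.31% and 4.23% of all tested genes were), and the median log2 fold change was 0.19. Acot8, a peroxisomal thioesterase, rose by 0.41 ± 0.09 (SE, adjusted p 0.0216, edgeR). Slc27a2, a very long chain acyl-CoA synthetase that also activates bile acid precursors, rose by 0.38 ± 0.11 (SE, adjusted p 0.0422, edgeR). Akr1c6, a hydroxysteroid dehydrogenase, rose by 0.47 ± 0.13 (SE, adjusted p 0.0427, edgeR). With the length and GC trends removed, Slc27a2 alone of the 3 was called. At an unadjusted p under 0.05 the list had 4 higher and 0 lower, and DESeq2, which called 14.1% of its genes in either direction, and limma-voom called 4 and 3 of them.

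Among 21 regulators of bile acid synthesis, 20 were tested and 0 were called in either direction, with 3 higher and 3 lower at an unadjusted p under 0.05, 2 called by DESeq2 and 0 by limma-voom. Their median log2 fold change was -0.12. The 3 regulators named next were chosen after their values were seen. Nr1h4, which encodes FXR, was at 143 ± 20.7 and 131 ± 15.4 CPM (SD, n = 6 and 8), and the log2 fold change was 0.12 ± 0.10 (SE, adjusted p 0.449, edgeR). Fgfr4, the receptor for FGF15, stood at -0.04 ± 0.14 (adjusted p 0.880, edgeR), and its co-receptor Klb at -0.16 ± 0.25 (adjusted p 0.679). Klb and Fgfr4 differed between the number ranges, by 0.80 (adjusted p 0.00360, edgeR) and 0.34 (adjusted p 0.0360, edgeR). Of the 20 regulators tested, 4 were called higher and 0 lower between the ranges, where 23.4% of all tested genes were called in either direction.

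Of 16 genes of bile acid transport, 14 were tested, 2 were called higher and 0 lower (3.31% and 4.23% of all tested genes were). At an unadjusted p under 0.05, 2 were lower, near the 15.4% of all tested genes. Slco1a1, an uptake carrier of the basolateral membrane with strong male bias, was at 121 ± 44.7 in transplant and 22.8 ± 12.8 CPM in empty scaffold livers (SD, n = 6 and 8), and rose by 2.40 ± 0.39 (SE, log2, adjusted p 0.0133, edgeR). Slc10a1, the sodium-dependent uptake carrier NTCP, rose by 0.42 ± 0.12 (SE, adjusted p 0.0410, edgeR) and was not called with the length and GC trends removed (0.29, adjusted p 0.165). Abcb11, the export pump of the canalicular membrane, stood at 0.02 ± 0.13 (adjusted p 0.945, edgeR) and was named after its value was seen. The median of the list was -0.04.

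Cyp7b1 is known to be male-biased, so genes that follow growth hormone or sex in mouse liver were set beside it. Of 25 listed growth hormone and male-biased genes, Cyp7b1 not among them, 23 were tested, with a median of 0.74. Of these, 11 (Slco1a1 of the transport list included) were called higher and 0 lower, where 3.31% of all tested genes were called higher. With the length and GC trends removed 8 were called higher, where 2.21% of all tested genes were. The 4 with the smallest adjusted p were Hsd3b5 (4.79 ± 0.68), Mup1 (2.55 ± 0.45), Slco1a1 (2.40 ± 0.39) and Mup3 (1.05 ± 0.20), as log2 fold change ± SE, the first 3 with an adjusted p of 0.0133 and Mup3 with 0.0143 (edgeR). Of 18 female-biased genes, 10 were tested, 0 were called higher and 1 lower, where 4.23% of all tested genes were called lower. It was Cyp2a4, at -1.55 ± 0.37 (SE, adjusted p 0.0297, edgeR). At an unadjusted p under 0.05, 4 of the 10 were lower and 0 higher, where 15.4% and 14.6% of all tested genes were. DESeq2, which called 14.1% of its genes, called 3 of the list and limma-voom 2, and the median of the list was 0.04. The log2 fold change of Cyp7b1, 0.90, lay above the median of the growth hormone and male-biased list. Whether these genes and Cyp7b1 changed for a common reason was not tested.

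Cyp7a1 and its regulators also follow the time of day and cholesterol. Single calls in these lists are near the 4.23% of all tested genes called lower. Of 15 circadian genes tested, 1 was called, Nr1d1, which encodes the clock repressor REV-ERB alpha, at -0.58 ± 0.14 (SE, adjusted p 0.0298, edgeR). Of 12 targets of the sterol sensors LXR and SREBP2, 1 was called, the cholesterol exporter gene Abcg1 at -0.66 ± 0.19 (SE, adjusted p 0.0427, edgeR). With the length and GC trends removed neither call held (Nr1d1 -0.45, adjusted p 0.0553; Abcg1 -0.35, adjusted p 0.329), and the circadian gene Cry1 was called higher instead (0.44, adjusted p 0.0427, edgeR). The part of either in the levels of the 10 genes was not tested.

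In bulk tissue, fewer cells of a type and less RNA per cell cannot be told apart. Of 12 hepatocyte markers, 1 was called higher (Serpina1c, 0.68 ± 0.18 SE, adjusted p 0.0353, edgeR). Their median was 0.19, where that of the 10 genes was 0.26, and their estimates ran from -0.28 (Apob) to 0.68. At an unadjusted p under 0.05, 2 of the 12 markers were higher and 0 lower, where 14.6% and 15.4% of all tested genes were. Of the 10 genes, 7 were higher and 0 lower at that p. Of 14 Kupffer cell and macrophage markers, 5 were called lower and 0 higher, where 4.23% of all tested genes were called lower. DESeq2 called 7 and limma-voom 3 of them, and the median was -0.65. Their summed level was 96.6 to 159 TPM in transplant and 166 to 403 TPM in empty scaffold livers. These ranges do not overlap, and neither do those of the cholangiocyte markers below, of which 0 of 8 were called. On the TPM scale the median tested gene was itself at -0.36, as given above. Stellate cell markers were called lower in 3 of 12 (171.6 to 230 against 188 to 378 TPM) and endothelial markers in 2 of 10 (61.0 to 70.9 against 69.7 to 155 TPM). With the length and GC trends removed, where 1.67% of all tested genes were called lower, 6 Kupffer cell and macrophage markers were called lower, and 0 stellate and 0 endothelial markers and no hepatocyte marker (Serpina1c at 0.54, adjusted p 0.0813, edgeR) were called. Cholangiocyte markers were called in 0 of 8 (29.4 to 52.6 against 55.2 to 91.0 TPM), with 1 lower at an unadjusted p under 0.05 and 0 by DESeq2 or limma-voom. Lymphocyte markers were called in 0 of 6, with 1 higher and 1 lower at an unadjusted p under 0.05, and adipocyte markers in 0 of 4, with 0 at that p, and DESeq2 and limma-voom called 0 of either. Of the gallbladder and gut markers, 2 were tested and 0 called, with 1 higher at an unadjusted p under 0.05 and 0 called by DESeq2 or limma-voom, and Fabp6, Cck and Muc5b were at 0 in all 14 libraries. The part of these cell types in the differences of the 10 genes was not tested.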

How the data were processed

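Per the labels' protocols, RNA was extracted with a column kit and made into stranded mRNA libraries. The submitters' processing notes name fastp 0.20, kallisto 0.46.1, DESeq2 1.38 and build GRCm39, with no role or order; kallisto's options and the annotation are not stated there. Each sample's deposited table lists Ensembl transcripts with columns for length, effective length, estimated count and TPM, per the file headers. The estimated counts are the authors' values without normalization. TPM, as deposited, is scaled per length to 1 common total and keeps no depth.

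Of 128803 transcripts, 120608 (93.6%) matched GENCODE M21, an annotation of an earlier build, used for names, length, GC content and transcript membership. Estimated counts were summed per gene and rounded, filtered with filterByExpr (13127 genes kept), scaled by TMM and tested with edgeR 4.0.16 in R 4.3.3 (quasi-likelihood, robust, two-sided, group only). P-values were adjusted over all tested genes by the Benjamini-Hochberg method, with calls made at 0.05. Intervals of fold changes are at 95%. The fit was tested on counts simulated with a group effect alone, so that test does not cover the number range or the length and GC trends. DESeq2 1.42.0, limma 3.58.1 (voom), other filters and scalings, an effective length offset, splines of 4 degrees of freedom on length and GC content, the number range in the titles, and leaving out each library were the alternatives, and total counts without TMM factors, the deposited TPM and another choice of libraries left out of correlations were added after seeing the data. Replicate numbers follow accession order and pair no samples. No pair of libraries agreed within sampling noise: the lowest chi-square per degree of freedom was 17.97.

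The 10 genes and all lists were chosen with earlier results of these data known. The text names all 10 genes, called genes of the other lists (at most 4 each) and, for Cyp7a1, Cyp7b1 and Nr0b2, the 5 genes of highest r with a mean of at least 1 CPM, predicted genes left out. Genes outside this rule are marked. Estimated counts of genes with near-identical copies, such as the Mup genes, are uncertain.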

Additional observations from a re-analysis of the deposited data

Results flagged for a closer look

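Cyp8b1 in transplant replicate 2, at 579.5 CPM, stood apart from the other 5 transplant libraries, which lay between 302 and 378 CPM. Its gap to the nearest of them was large for the range of the group by Dixon's test. The 10 genes in 2 groups gave 20 such tests, of which 1 was past the limit, and chance passes about 1 in 20. Without that library the log2 fold change of Cyp8b1 was -0.08 (adjusted p 0.771, edgeR), against 0.07 with it.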

How the results depend on the processing

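Among the 10 genes, 2 were called higher. That count was 1 with no filter on low counts, 1 with total counts without TMM factors (chosen after seeing the data), 0 in the libraries numbered below 100 and 4 in those of 100 or above. With no filter, 282 of 24970 genes were called higher. Leaving out 1 library gave 1 to 5 of the 10 genes. The count was 1 without transplant replicate 1 or 5 or empty scaffold replicate 3, 4 or 8. It was 5 without empty scaffold replicate 5, when Akr1d1, Amacr and Baat joined. Over all genes, the fits with a count of 1 called 51 to 121 genes higher. The fit with 5 called 751 of 13100 higher, against 435 of 13127 with all libraries. None of the 10 genes was called lower under any of the alternatives run. Cyp7b1 was called under every alternative except the libraries numbered below 100 alone. The count of 1 gene differing between the number ranges became 0 with DESeq2 size factors, no filter or the length and GC trends removed. It was 2 with the effective length offset or the DESeq2 Wald test and 4 with total counts without TMM factors. Over all tested genes, the offset called 1730 higher and 1572 lower of 13127. The Wald test called 1705 higher and 1831 lower of 14313, and total counts 3543 and 379 of 13127. In the main comparison 23.4% of all tested genes were called. With a library left out the count among the 10 genes was 0 to 1. It was 0 without transplant replicate 1, 2, 4 or 6 or empty scaffold replicate 2, 6 or 8. Without empty scaffold replicate 4 or 5 the 1 gene was Nr0b2 or Hsd3b7 in place of Cyp7a1.

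On the scale of the deposited TPM, added after seeing the data and without a test, Cyp8b1 (-0.37), Hsd3b7 (-0.37), Slc27a5 (-0.21), Amacr (-0.20), Baat (-0.18), Akr1d1 (-0.14) and Cyp27a1 (-0.054) changed sign, where the median tested gene was at -0.36. Among the fits to counts, those that changed sign were Cyp8b1 (-0.12 below 100, -0.14 with total counts, -0.076 to 0.15 with a library left out, negative without transplant replicate 2), Hsd3b7 (-0.22 below 100, -0.093 with total counts) and Nr0b2 (0.084 below 100). The ratio of Cyp7b1 to Cyp8b1 was 0.998 below 100 (adjusted p = 0.114, exact permutation test) and 0.66 at 100 or above (adjusted p = 0.571), and 0.71 to 0.99 with a library left out. With 3 against 4 libraries the smallest p before adjustment is 0.0286. The ratio below 100 was at that limit, so its p-value says nothing about stability. At 100 or above the ranges of the groups overlapped and the p was not at the limit. Cyp7b1 to Cyp7a1 ran from -0.0088 (without transplant replicate 6) to 0.54 with a library left out. With means of group and range subtracted, r was 0.059 for Nr0b2 with Cyp7a1 and 0.15 for Nr0b2 with Cyp8b1. Without the 2 libraries farthest after subtraction (added after seeing the data, no test), r was -0.35 for Nr0b2 with Cyp7a1, 0.023 for Nr0b2 with Cyp8b1, 0.21 for Cyp7a1 with Cyp8b1 and 0.34 for Cyp27a1 with Cyp7b1. In log2 TPM the r of Nr0b2 with Cyp8b1 was also 0.15, and it ran from -0.20 to 0.10 with a library left out, above 0 without transplant replicate 2 (0.01) or 5. Cyp7a1 with Cyp8b1 reached 0.80 in log2 TPM (adjusted p = 0.0066, permutation test), where Cyp27a1 with Cyp7b1 was at 0.55. TPM is not scaled by TMM factors: in transplant livers Baat spanned 264 to 287 CPM but 110 to 168 TPM. The part of library differences shared by the genes in the r of 0.80 was not tested. Cyp27a1 with Cyp7b1 reached 0.85 without subtraction of group means (adjusted p = 0.00044, permutation test), where the group difference enters. Where no value shows the cause of a change, the cause was not tested. No paired analysis was possible because the numbers in the titles are not shared between the groups.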

Other observations

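Transplant replicate 1 had the lowest Nr0b2 of all 14 libraries (12.1 CPM), the steepest fall of level with transcript length (-0.29) and the highest total count of the series (28910968). With the length and GC trends removed from every library, the log2 fold change of Nr0b2 over all 14 libraries was -0.42 (adjusted p 0.347, edgeR), against -0.27 with the trends left in.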
